A study of Mus musculus with 24 samples.

Results

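The genes described here encode the proteins of the cytosolic ribosome, the particle that translates messenger RNA in the cytoplasm. They were taken by symbol: Rpl or Rps followed by a number and at most a final a, l or x, together with Rpsa, Rplp0, Rplp1 and Rplp2. The rule found 80 genes among the 37289 in the expression tables, 32 named for the small subunit and 48 for the large subunit. RNA from the striatum of 12 female C57BL/6 mice was sequenced, 3 mice in each of 4 groups. The groups were wild type or heterozygous for Cntnap2, which encodes a neuronal cell adhesion protein, and were either controls or offspring of dams under a variable stress that began on embryonic day 12.5 and lasted 7 days. All were ear-tagged at postnatal day 12 and weaned at day 18. Neither the age at tissue collection nor the kind of Cntnap2 allele is stated in the labels. The tissue was a frozen micropunch holding all cell types of the striatum, so that fewer cells of a type and less RNA per cell cannot be told apart.

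Each ribosome holds a single copy of nearly every one of these proteins, bound to ribosomal RNA, and cells make them in matched amounts. Their messenger RNAs are abundant and short, and many start with a cytosine followed by a run of pyrimidines, the 5′ terminal oligopyrimidine or TOP motif, through which the mTOR pathway controls their translation. In neurons these RNAs are found both in the cell body and in dendrites and axons.

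The start sites of 8 members are shown because the members varied together across libraries, and because these 8 span the range of that behaviour. They were picked by hand to include members with and without the run marked below, and so do not show how often it occurs. Each window runs 5′ to 3′ on the gene's strand, from 30 bases before the RefSeq start to 20 bases from it, in build GRCm38.p6 of the RefSeq promoter table. Capitals mark a run of at least 5 pyrimidines that begins with C at the annotated start base, or the start base alone where there is no such run.
Rps27, chr3:90213629-90213678, minus strand: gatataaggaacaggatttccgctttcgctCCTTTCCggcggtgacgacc
Rpl35, chr2:39005112-39005161, minus strand: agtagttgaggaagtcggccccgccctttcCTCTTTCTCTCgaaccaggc
Rps18, chr17:33955646-33955695, minus strand: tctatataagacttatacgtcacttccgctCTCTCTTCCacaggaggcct
Rps10, chr17:27635225-27635274, minus strand: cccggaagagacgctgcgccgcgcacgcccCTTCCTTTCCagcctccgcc
Rpl15, chr14:18270967-18271016, minus strand: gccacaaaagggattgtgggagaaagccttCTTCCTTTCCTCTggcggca
Rpl9, chr5:65391412-65391461, minus strand: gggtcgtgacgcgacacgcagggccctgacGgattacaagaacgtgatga
Rpl23, chr11:97782420-97782469, minus strand: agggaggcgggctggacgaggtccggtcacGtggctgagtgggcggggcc
Rpl4, chr9:64173357-64173406, plus strand: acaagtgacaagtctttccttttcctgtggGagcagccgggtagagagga

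Of the 80 members, 58 had a window in the RefSeq table, and 13 of these (22.4%) carried the run of C followed by at least 4 pyrimidines at 1 of their annotated starts. Among all 27025 genes with a window, 3.01% carried it. The search used the gene's own strand only and the annotated base only, so a run a few bases away was not counted.

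The 12 RNA libraries held 13587154 to 24039706 expected counts. All 6 libraries labelled heterozygous were deeper (at least 21410135) than all 6 labelled wild type (at most 18538304), so that genotype and depth cannot be told apart. Cntnap2 itself had 48.2 ± 11.3 TPM (SD, n = 6) in libraries labelled wild type and 46.4 ± 7.78 (SD, n = 6) in those labelled heterozygous. This difference lay within the spread, so the level of Cntnap2 gives no check of the genotype labels. Between genotypes edgeR called 1 of 15955 genes in controls and 1 after stress, and these calls were not examined as such a check. In addition, the file of heterozygous control replicate 1 carries another animal number than its label, and Xist, the RNA of the inactive X chromosome, stood at 1.32 TPM in wild-type stress replicate 2 against 23.1 to 109 in the other 11 libraries, all labelled female. All 10 spiny projection neuron markers were found, with summed levels of 3850 to 8725 TPM. The lowest sum was in heterozygous control replicate 1, as were those of the 6 oligodendrocyte markers (5002 to 13287 TPM), the 6 astrocyte markers (315 to 702), the 6 microglial markers (192 to 286) and the 5 endothelial markers (139 to 243). The 5 choroid plexus markers differed most between libraries, with sums of 299.9 to 577 TPM in wild-type control, 5.80 to 23.4 in wild-type stress, 9.01 to 850 in heterozygous control and 12.2 to 571 in heterozygous stress libraries. The 4 cortex markers had 11.6 to 82.8 TPM in heterozygous control and 110 to 153 in heterozygous stress libraries. No marker was called by edgeR in any contrast, none of those found was at 0 in all libraries, and the part of cell make-up in the results was not tested. Values without these 2 libraries are given below where a result rests on them.

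Most ribosomal protein genes had high levels in the striatum. TPM is RSEM's transcript abundance, corrected for length and scaled to the same sum in each library, and it allows genes to be compared with each other. Of the 80 members, 76 had a mean above 1 TPM, 69 above 100 and 28 above 1000, with a median over members of 753 TPM. Rplp1, an acidic protein of the ribosomal stalk that recruits elongation factors, was highest with 3660 TPM as the mean of 12 libraries, and ranged from 2670 to 4546. Next came Rpl13a of the large subunit with 3095 TPM (1764 to 5321), Rps21 and Rps15 of the small subunit with 2937 (1638 to 4609) and 2927 (1737 to 4463), and Rpl9 of the large subunit with 2435 (1298 to 4292). The ranges of these 5 genes overlapped, but each library measured all of them. Within every library Rpl13a, Rps21 and Rps15 stood above Rpl9, whereas the order was otherwise not the same in all libraries. In the middle of the order, Rpsa, also known as the laminin receptor, had 766 TPM (565 to 931), Rpl7 had 756 (621 to 846) and Rpl14 had 750 (554 to 867). The order of these 3 changed between libraries.

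Of the 77 members with enough counts for a test, 8 were below 100 TPM. Rpl15 had 92.8 TPM, Rps27l 83.1, Rpl27 43.7, Rpl10a 42.5, Rps4l 36.6, Rps13 29.3 and Rpl5 20.5, although Rpl15, Rpl27, Rpl10a, Rps13 and Rpl5 encode core proteins of every ribosome. Rpl3l was the lowest at 0.73 TPM. The 3 members without enough counts were Rpl39l, with 60 expected counts in all over 11 libraries, Rpl6l, with 30.6 over 5 libraries, and Rpl10l, with 1 in all.

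Of the core genes of low value, Rps13, Rpl27, Rpl10a and Rpl15 had annotated copies of high value, whereas both copies of Rpl5 were listed at 0 in all libraries. Mammalian genomes carry many retrocopies of ribosomal protein messenger RNAs, and RSEM divides reads that match several places among them. The tables list 195 genes named as copies (the member's symbol followed by ps and a number, or by rt) for 57 of the 80 members, and 14 of the copies had a mean above 100 TPM. Rps27rt had 2354 TPM against 351 for Rps27, so that 87.0% of their sum lay in copies. For Rps13 the copies held 96.4%, for Rpl27 94.4%, for Rpl31 93.9%, for Rpl10a 93.9% and for Rpl15 88.9%, and 11 members had more than 50% there. Summed with its copies, Rps13 reached 806 TPM and Rpl27 777, and the median over members became 859 TPM. How the reads truly divide between a member and its copies cannot be told from these tables, so the levels of these 11 genes are uncertain, Rpl37, Rpl10, Rps6, Rps16 and Rpl28 among them. Copies under other names were not searched, so the levels of other members, Rpl5 among them, may be uncertain too. In total the copies held 13.0 to 15.1% of the summed TPM of members and copies in the 12 libraries, a narrow range.

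Among the paralogues, the tissue-restricted forms Rpl3l, Rpl39l and Rpl10l were at or near 0 and their general forms high. Rps4l and Rps27l were not near 0. Rpl3 had 1118 TPM, against 0.73 for Rpl3l, a form known from heart and skeletal muscle. Rpl39 had 581 TPM and Rpl10 314, against 0.57 for Rpl39l and 0.01 for Rpl10l, both known from testis. Rps4x had 666 TPM against 36.6 for Rps4l. Rps27l, which is known as a p53 target, had 83.1 TPM, 50.8 to 140 over the libraries, and here the comparison with Rps27 is uncertain because of Rps27rt.

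Most members kept the same leading transcript in all mice. Of the 77 tested members, 18 had a single annotated transcript and 59 had several, up to 13 for a member. In 74 of the 77 the same transcript was the most abundant in all 12 libraries, and in 34 of the 59 it held over 90% of the gene's TPM on average. Rpl13a, with 13 transcripts, was the most divided of the abundant members, its first transcript holding 33.2% on average (28.9 to 36.0%).

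Summed ribosomal protein RNA differed between mice of a group by more than the group means did. Summed over the 80 members, it made up 9.97, 7.50 and 4.72% of all TPM in the 3 wild-type control libraries (7.40 ± 2.62, SD, n = 3). In wild-type stress libraries it was 7.26, 7.73 and 5.00% (6.67 ± 1.46, n = 3). Heterozygous controls had 9.72, 6.82 and 6.15% (7.56 ± 1.90, n = 3) and heterozygous stress libraries 6.33, 7.48 and 6.91% (6.91 ± 0.573, n = 3). All 4 groups overlapped, the widest spread, 2.11-fold, lay within wild-type controls, and the narrowest, 1.18-fold, within heterozygous stress libraries. As a share of expected counts, which also weighs length, the members took 1.68 to 5.25%. RNA encoded in the mitochondrial genome ran the other way, at 8.51, 13.4 and 18.7% of TPM in wild-type controls, 12.2, 14.2 and 17.8% in wild-type stress, 9.93, 14.4 and 15.3% in heterozygous control and 13.7, 13.7 and 15.8% in heterozygous stress libraries.

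**Figure D1:**
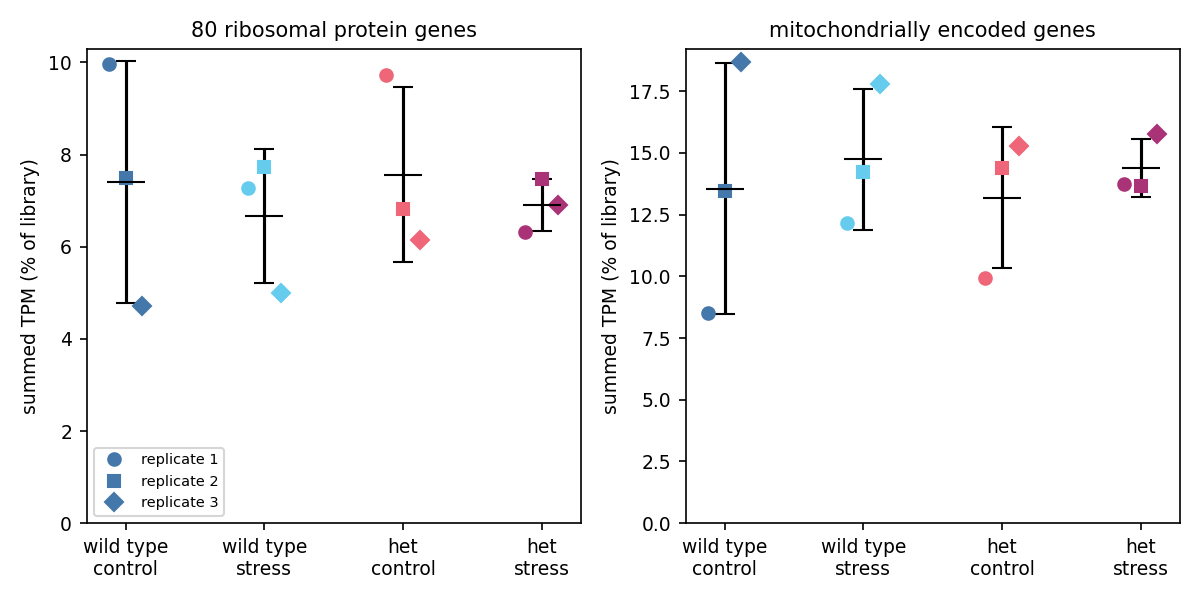
Summed TPM of the 80 ribosomal protein genes (left) and of the genes of the mitochondrial genome (right) as a percentage of each library's TPM, by group. Points are libraries, horizontal marks and bars the mean and SD of 3 libraries. The member sums run from 4.72 to 9.97% with all groups overlapping, and libraries with high member sums have low mitochondrial sums.

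The members moved together. In each library the log2 CPM (count scaled by library size) of each of the 77 tested members was set against its own mean over 12 libraries. In wild-type control replicate 1, wild-type stress replicate 1 and heterozygous control replicate 1, 76, 76 and 77 of the 77 members lay above their mean, with median deviations of 0.64, 0.19 and 0.82. In replicate 2 of the same groups 75, 74 and 39 members did, with medians of 0.17, 0.27 and 0.0004. In wild-type control replicate 3 and wild-type stress replicate 3 no member did, with medians of -0.77 and -0.69, and in heterozygous control replicate 3 only 2 did, with a median of -0.29. Heterozygous stress libraries stood close together, with medians of -0.20, -0.01 and -0.19. A single axis carried 94.3% of the members' variance over libraries, against 48.2% for all tested genes. The small and large subunits shared this: the ratio of summed small to summed large subunit TPM was 0.814 to 0.932, highest in heterozygous control replicate 1 and lowest in wild-type stress replicate 3.

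**Figure D2:**
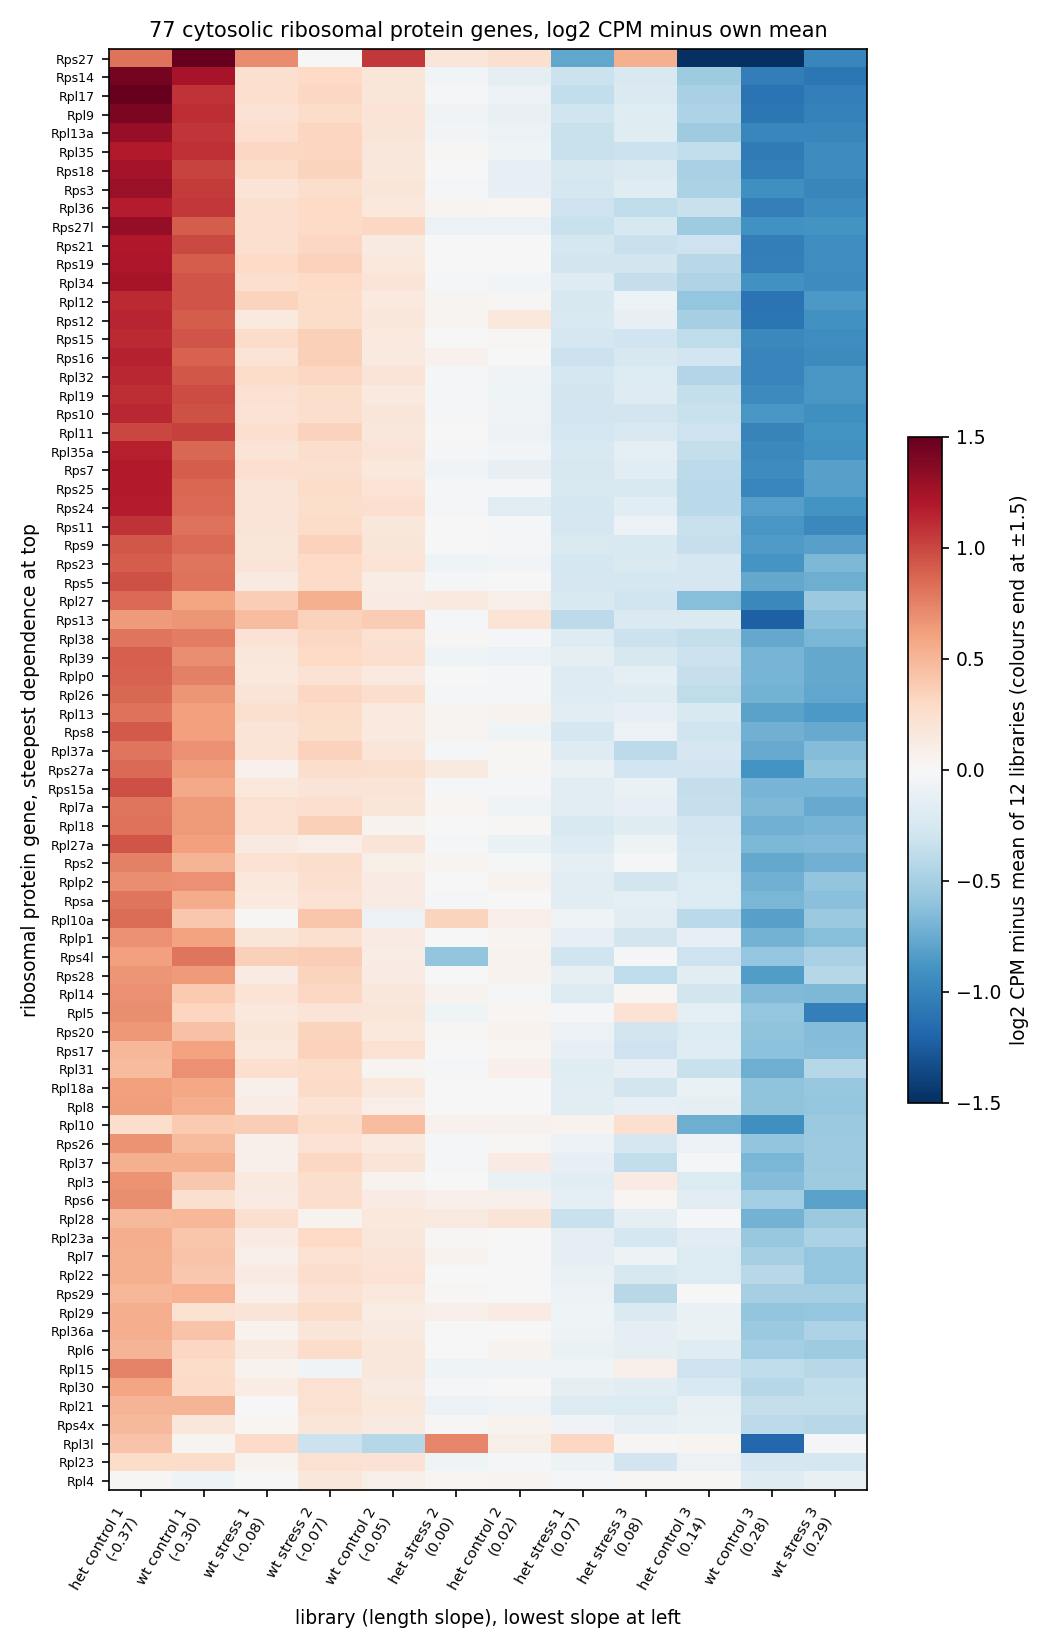
Deviation of log2 CPM from each gene's mean over 12 libraries, for 77 ribosomal protein genes (rows, steepest dependence on library length slope at the top) and 12 libraries (columns, ordered by length slope, which is printed under each). The 2 libraries at the left, heterozygous control replicate 1 and wild-type control replicate 1, are high for nearly all members, and the 2 at the right, wild-type control replicate 3 and wild-type stress replicate 3, are low.

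The shared axis ran with the length slope of the libraries. For each library this is the slope, over tested genes, of log2 CPM minus the gene's mean on log2 transcript length. A negative slope means that short transcripts were over-represented there relative to the other libraries. It was -0.30, -0.05 and 0.28 in wild-type controls, -0.08, -0.07 and 0.29 in wild-type stress, -0.37, 0.02 and 0.14 in heterozygous control, and 0.07, 0.00 and 0.08 in heterozygous stress libraries. Computed without the members, the slope and the median member deviation had a Pearson r of -0.99 and a Spearman rho of -0.97 over 12 libraries. Without the 2 libraries farthest from the median slope, heterozygous control replicate 1 and wild-type control replicate 1, r was -0.99 over 10, and with group means removed it was -0.99. These are descriptions: both measures come from the same scaled counts, and the tested members have a median length of 679 nt (345 to 1861) against 2443 nt for all tested genes. The share of TPM in members gave r = -0.98 and that of mitochondrial RNA 0.96, whereas total counts gave -0.05. What sets the slope of a library was not tested.

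**Figure D3:**
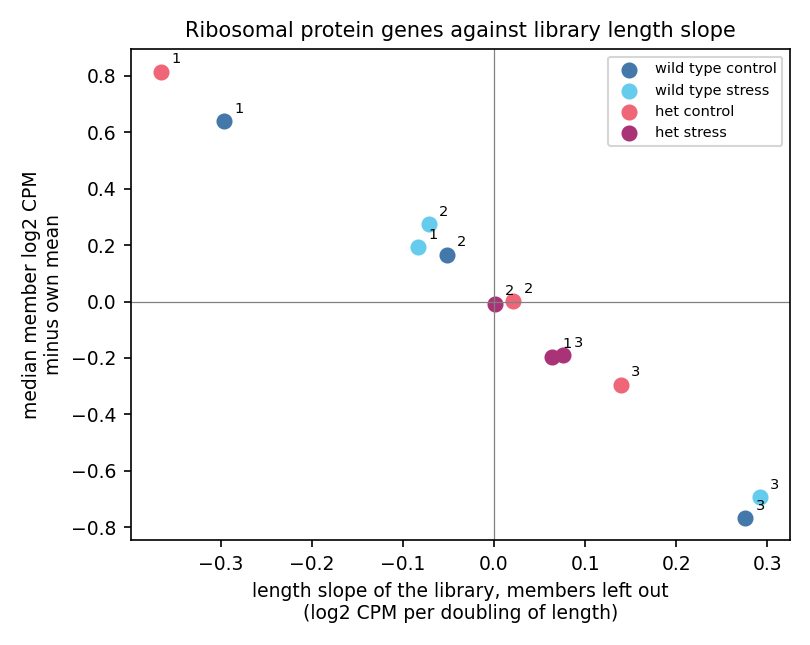
Median deviation of the 77 tested members from their own mean log2 CPM (vertical) against the length slope of each library computed without them (horizontal), with replicate numbers beside the points. The 12 libraries lie along a falling line (Pearson r -0.99), with replicates of a group far apart in 3 of the 4 groups.

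Every tested member had a negative dependence on length slope, whereas 50.03% of all tested genes did. The dependence is the change in log2 CPM per unit of length slope, and its median over members was -2.38, from -4.60 for Rps27 to -0.19 for Rpl4. Rps27 followed the slope loosely: heterozygous stress replicates 1 and 3, with slopes of 0.07 and 0.08, deviated by -0.78 and 0.53. Copies held 87.0% of the summed TPM of Rps27 and its copies, so its dependence is uncertain. Rpl9, among the steepest at -3.70, had 2304, 1229 and 503 CPM in wild-type controls, 1238, 1293 and 527 in wild-type stress, 2831, 989 and 771 in heterozygous control, and 867, 1024 and 939 in heterozygous stress libraries. Its highest library thus stood in the heterozygous controls and its lowest in the wild-type controls, and all 4 groups overlapped. Rpl4, which lines the exit tunnel for the growing peptide, had 520, 577 and 479 CPM in wild-type controls, 543, 611 and 501 in wild-type stress, 547, 557 and 551 in heterozygous control, and 533, 554 and 547 in heterozygous stress libraries. With 1422 nt Rpl4 is among the longer members, and its CPM was nearly level across the study. Its TPM ran from 400 in heterozygous control replicate 1 to 651 in heterozygous stress replicate 3. Others near the flat end were Rpl23 at -0.92, Rpl3l at -1.04 and Rps4x at -1.18, and near the steep end Rps14 at -3.86, Rpl17 at -3.80, Rpl13a at -3.53, Rpl35 at -3.45 and Rps18 at -3.43. Across the 77 members the dependence rose with log2 length (Pearson r 0.41, Spearman rho 0.38), genes of the same 12 libraries not being independent points.

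Members were set against other genes of like length. In each of 5 length classes the members had a steeper median dependence than other genes: -3.07 for 14 members against -2.06 for 187 other genes from 345 to below 500 nt, and -2.63 for 15 against -2.02 for 197 from 500 to below 600 nt. From 600 to below 800 nt it was -2.59 for 21 members against -1.84 for 513 genes, and from 800 to below 1100 nt -1.93 for 16 against -1.44 for 1039. The gap was widest from 1100 to below 1900 nt, at -1.88 for 11 members and -0.83 for 3596 other genes. The other genes were matched for length only, not for expression level, and included tested copies of the members. Whether the gap goes with expression level was not tested. Of the 77 members, 74 lay below -1.08, the median of the 5349 other genes over the whole length range of the members. Members with the pyrimidine run at the annotated start base had a median dependence of -2.51 (13 genes). Those with a window and no run at that base had -2.48 (43 genes). A run a few bases away was not counted, so these values cannot tell whether the TOP motif goes with the dependence. Among the windows printed above, Rpl9 at -3.70 and Rpl4 at -0.19 both have no run at the annotated base.

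**Figure D4:**
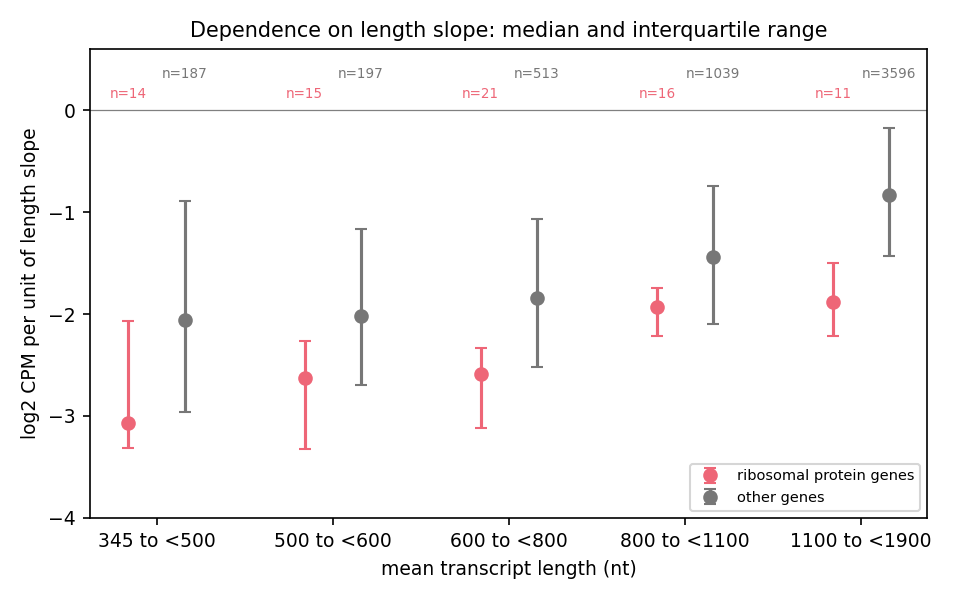
Dependence of log2 CPM on the length slope of the library, for 77 ribosomal protein genes and other tested genes in 5 classes of transcript length in nt. Points are medians and bars run from the 25th to the 75th percentile over genes, with the number of genes above. The member median is below that of other genes in each class, from -3.07 against -2.06 in the shortest to -1.88 against -0.83 in the longest. The other genes were not matched for expression level.

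Against this background the 4 groups were compared with edgeR's quasi-likelihood test on TMM-scaled counts over 15955 genes, with Benjamini-Hochberg adjustment and a call at an adjusted p under 0.05. A comparison asks whether prenatal stress, Cntnap2 genotype or both go with another level of a gene. No member was called in any of the 8 contrasts. With edgeR none reached an unadjusted p under 0.05 in 7 contrasts, and 1, Rpl3l, did in the other. Nor was a member called by limma-voom with sample weights, by limma-trend or by DESeq2. At an unadjusted p under 0.05 DESeq2 had none, limma-trend at most 1 in a contrast and limma-voom with sample weights up to 30, these in the genotype average, where 23.7% of all genes had such a p in that fit. The median SE of a member's log2 fold change was 0.39 in pairwise contrasts. The contrasts share groups, and their values are therefore not independent.

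Prenatal stress in heterozygous mice gave the largest shift of the set. The median log2 fold change was -0.39 over 77 members, 2 higher and 75 lower in stress, against 0.00 over all genes and -0.14 over 5349 other genes of the members' length range. None was called (0.0% of all genes were). In the same contrast all 4 cortex markers were higher (median 1.01), all 6 astrocyte markers were higher (0.24) and all 5 choroid plexus markers were lower (-1.27), none of them called. All 10 spiny neuron (-0.08), 5 endothelial (-0.17), 4 ependymal (-0.56) and 3 red blood cell markers found (-0.43) were lower too. Oligodendrocyte, microglial and thalamus markers went both ways. The small subunit had a median of -0.47 and the large subunit of -0.35. The length slope was higher on average in the stress libraries (0.05) than in the controls (-0.07), and with a length offset in the fit the median was -0.09, with the length slope as a covariate -0.03. Without heterozygous control replicate 1, the library with the lowest length slope and with the differing animal number, it was 0.02. Among single genes, Rpl37 had the smallest p of the lower ones. It had 206, 155 and 142 CPM in heterozygous controls and 132, 141 and 110 in heterozygous stress libraries. The 2 groups met without overlap, as in no other member, and 2.71% of all genes were lower and 3.97% higher in this way (log2 fold change -0.39 ± 0.30 SE, adjusted p = 1.0, edgeR). The copy Rpl37rt held 76.9% of the summed TPM of this pair, and the value for Rpl37 alone is uncertain. Rpl17, another protein at the exit tunnel, had -0.78 ± 0.60, Rpl3l 0.22 ± 0.37 and Rpl10, which joins the large subunit late in its assembly, 0.20 ± 0.37 (SE). Rpl10 merged with its copies gave -0.43 instead.

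In wild-type mice the shift with stress was smaller. The median was -0.17, with 6 members higher and 71 lower, against -0.01 over all genes and -0.09 over other genes of the same length range, and no member was called (0.0% of all genes). All 5 choroid plexus markers (median -3.63), all 6 oligodendrocyte (-0.50), all 6 microglial (-0.13) and all 3 red blood cell markers found (-0.25) were lower there. All 4 cortex (0.23) and all 10 spiny neuron markers (0.12) were higher. Astrocyte, endothelial, ependymal and thalamus markers went both ways, and no marker was called. With the length offset the members' median was -0.01 and with the slope covariate 0.05. It turned positive without wild-type control replicate 1 (0.20) or without wild-type stress replicate 3 (0.06), and was -0.33 without wild-type stress replicate 2, the library with low Xist. In no member were the groups apart (2.62% of all genes were higher and 3.17% lower without overlap). Rps27 had the lowest value, -0.85 ± 0.81 (SE). Its CPM was 174, 109 and 13.1 in wild-type controls and 85.9, 51.98 and 26.5 in wild-type stress, 92.2, 61.8 and 18.5 in heterozygous control and 30.5, 59.6 and 75.8 in heterozygous stress libraries. The 3 wild-type controls thus enclosed all other libraries, and the coefficient of variation of its TPM over 12 libraries was 59.2% alone and 33.5% when summed with its copies. Rps14, of the small subunit, had -0.46 ± 0.61, Rpl4 0.07 ± 0.13 and Rpl3l 0.51 ± 0.41 (SE).

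Between genotypes the shifts of the set were smaller than that with stress in heterozygous mice. Their direction depended on the fit, as did that of the stress shifts in both genotypes. In controls the median was 0.14 in heterozygous against wild-type libraries, 70 members higher and 7 lower, and none called (0.00627% of all genes). Other genes of the length range had 0.05 and all genes 0.00. The value was 0.09 with the length offset, 0.07 on log2(TPM + 1), -0.21 in limma-voom with sample weights, -0.29 without heterozygous control replicate 1 and 0.49 without wild-type control replicate 1, so that its sign rests on single libraries. All 5 thalamus markers (median -0.62), all 6 oligodendrocyte (-0.32), all 4 cortex (-0.53) and all 4 ependymal markers (-0.40) were lower. All 10 spiny neuron (0.23), all 5 choroid plexus (0.21) and all 3 red blood cell markers found (0.17) were higher. Astrocyte, microglial and endothelial markers went both ways, and no marker was called. No member's groups were apart, where 1.44% of all genes were higher and 1.95% lower without overlap. After stress the median was -0.12, 8 members higher and 69 lower, none called (0.00627% of all genes), other genes of the length range having -0.02. Here the length offset gave -0.0035, log2(TPM + 1) 0.07, limma-voom with sample weights -0.30, a replicate block 0.01, and the fit without wild-type stress replicate 2 gave 0.06. Of the choroid plexus markers 4 of 5 were higher (median 2.31) and all 4 ependymal markers were lower (-1.12), none called. All 6 oligodendrocyte (0.20), all 6 astrocyte (0.14) and all 6 microglial markers (0.06) were higher. Spiny neuron, endothelial, thalamus, cortex and red blood cell markers went both ways. Again no member's groups were apart (3.08% of all genes were higher and 2.11% lower without overlap). Among single genes in controls, Rpl3l had 0.73 ± 0.40 and Rpl29 0.26 ± 0.27, while Rps27 had -0.78 ± 0.81 and Rpl10 -0.17 ± 0.37 (SE). After stress Rpl3l had 0.44 ± 0.38 and Rpl5, which binds the 5S ribosomal RNA, 0.18 ± 0.34, while Rps4l had -0.42 ± 0.36 and Rpl23 -0.16 ± 0.18 (SE).

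**Figure D5:**
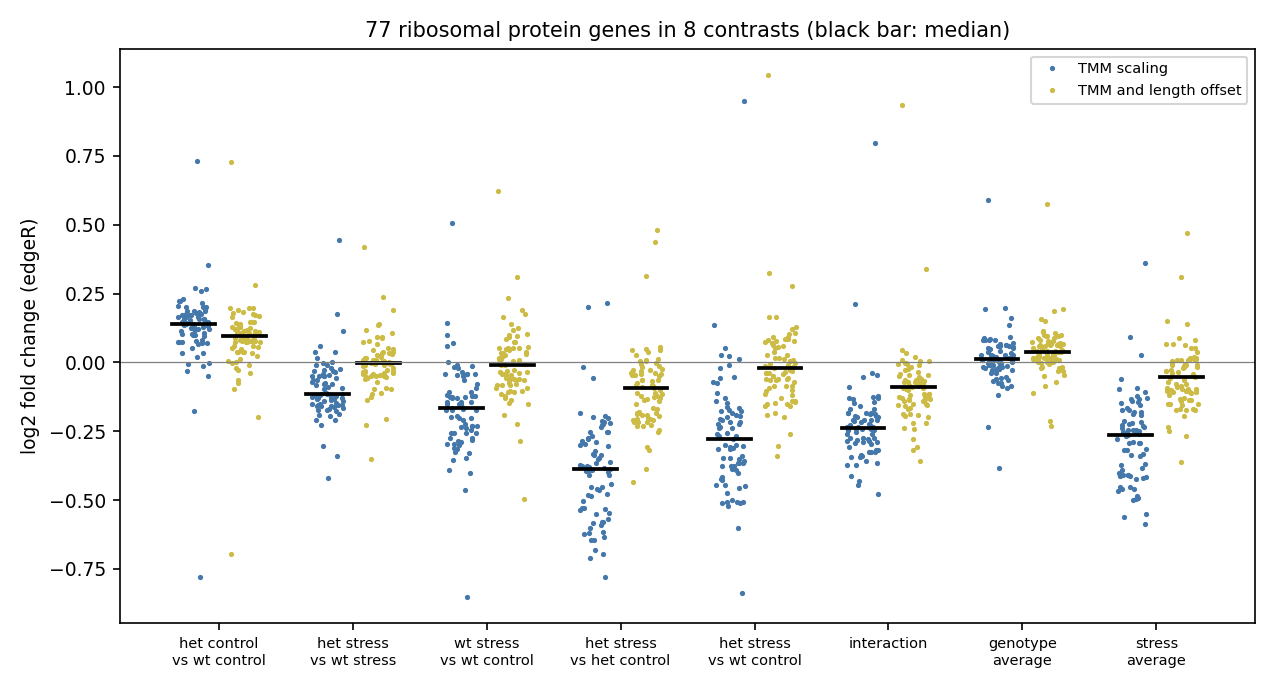
Log2 fold changes of the 77 tested ribosomal protein genes in the 8 contrasts, from edgeR with TMM scaling (blue) and with TMM scaling and a length offset (yellow). Points are genes and black bars medians. The median for stress in heterozygous mice is -0.39 with TMM and -0.09 with the offset, and no gene passed the test in either fit.

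The contrast with both factors changed, heterozygous stress against wild-type control, had a median of -0.28 with 6 members higher and 71 lower, none called (0.00627% of all genes), and other genes of the length range had -0.10. It was -0.02 with the length offset and 0.11 without wild-type control replicate 1, and no member's groups were apart (3.64% of all genes were higher and 2.66% lower without overlap). Rpl3l was the only member with an unadjusted p under 0.05 in edgeR here, as were 1.28% of all genes. It had 12, 8 and 4 expected counts in wild-type controls, 11, 9 and 11 in wild-type stress, 19, 15 and 16 in heterozygous control and 19, 27 and 14 in heterozygous stress libraries. Its CPM was 0.76, 0.55 and 0.33 in wild-type controls and 0.91, 1.23 and 0.75 in heterozygous stress libraries, overlapping by a narrow margin. The log2 fold change was 0.95 ± 0.39 (SE), with an adjusted p of 1.0 in edgeR. It was positive in all 26 other settings, with adjusted p-values of 0.083 to 1.0. The counts are few, and genotype and depth cannot be told apart here. Rpl4 had 0.05 ± 0.13, Rps4l -0.51 ± 0.36 and Rpl21 -0.31 ± 0.24 (SE) in this contrast.

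The difference of the stress effects between genotypes, tested as the interaction, had a median of -0.24 with 2 members higher and 75 lower and none called (0.0% of all genes). It was -0.09 with the length offset, 0.01 on log2 TPM, 0.21 without heterozygous control replicate 1 and -0.07 without wild-type stress replicate 2. Rpl29 had -0.34 ± 0.39 and Rpl27 -0.48 ± 0.63, Rps27 0.80 ± 1.14 and Rpl10 0.21 ± 0.53 (SE), the latter pair lying below 0 once merged with their copies (-0.32 and -0.28). Averaged over prenatal conditions, the genotype median was 0.01, 45 members higher and 32 lower, none called (0.00627% of all genes), and -0.24 in limma-voom with sample weights. Averaged over genotypes, the stress median was -0.26, 3 members higher and 74 lower, none called (0.0% of all genes), -0.05 with the length offset and 0.11 without the 2 libraries of lowest length slope. Without wild-type stress replicate 2 these averages were 0.10 and -0.34, and without heterozygous control replicate 1 they were -0.20 and -0.09. In the stress average Rpl21 had -0.24 ± 0.17 and Rps14 -0.59 ± 0.43, and in the genotype average Rpl3l had 0.59 ± 0.28 and Rpl5 0.20 ± 0.24, against -0.23 ± 0.26 for Rps4l and -0.09 ± 0.13 for Rpl23 (SE).

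Other genes of protein synthesis were set beside the members. With edgeR no gene of 7 lists was called in any contrast. At an unadjusted p under 0.05 edgeR had at most 1 gene of a list in a contrast, DESeq2 at most 2 and limma-voom with sample weights up to 28, of the 75 respiratory chain genes in the genotype average. The last called 1 of 22 TOP and elongation genes (Vim), 2 of 30 assembly genes (Nmd3 and Wdr12) and 1 of 10 p53 genes (Bbc3), all in the genotype contrast of controls, in which that fit called 6.16% of all genes. In heterozygous stress against control, the 77 mitochondrial ribosomal protein genes, with a median length of 961 nt, had a median of -0.23 (3 higher, 74 lower), and 75 nuclear genes of the respiratory chain, with 651 nt, had -0.32 (5 higher, 70 lower). Elongation factors and other TOP genes had -0.17 (6 of 22 higher), Vim having -0.29 and Eef1a2 0.15. The longer genes of ribosome assembly (2397 nt) had 0.04, initiation factors (2457 nt) 0.02, and genes of the mTOR and Myc pathways (3134 nt) 0.03, where Larp4 had 0.17 and Akt1s1 -0.20. The 10 p53 genes had 0.00. With the length offset the mitochondrial ribosome stood at -0.04, the respiratory chain at -0.02 and the TOP and elongation genes at -0.01, next to -0.09 for the members.

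The same lists ordered by their dependence on the length slope. Members had -2.38, the respiratory chain -2.15, the mitochondrial ribosome -1.79, TOP and elongation genes -1.33, initiation factors -0.60, p53 genes -0.18, assembly genes 0.16 and mTOR and Myc genes 0.62. In heterozygous control replicate 1 the respiratory chain and the mitochondrial ribosome deviated by 0.70 and 0.65, beside 0.82 for the members, and in wild-type control replicate 3 by -0.57 and -0.54, beside -0.77. The cytosolic ribosome was thus high and low in the same libraries as 2 other sets of short transcripts.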

How the data were processed

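For the 12 RNA libraries, random-primed cDNA was prepared by a NuGen protocol, per the labels. The submitters' processing notes name RSEM, Bowtie and the build mm9 (NCBIM37), without versions for RNA. The deposited tables give RSEM expected counts and TPM per gene and transcript, 1 file per library, per the file headers; the effective length behind TPM is the length minus 100 nt for members. Symbols matched 32606 of 37289 genes. Expected counts were rounded, filtered with filterByExpr and fitted over all 12 libraries with edgeR 4.0.16 (TMM, robust glmQLFit) in R 4.3.3, two-sided. Alternatives used DESeq2 1.42.0 and limma 3.58.1, log2 TPM with pseudocounts of 1 and 0.1, a lowess length offset (span 0.3) and each library left out in turn. The main edgeR fit was tested on simulated counts for genotype in controls, drawn without a length slope, and the alternatives were not. Log2 CPM used a prior count of 2, and the CPM printed for single genes were taken back from these log2 values.

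Members and gene lists were chosen with earlier results of these data known. Named genes are, per contrast, the 2 of smallest p in each direction, the 5 highest, 3 around the median, untested members and paralogue pairs; genes at the ends of the slope dependence and with large copies were singled out after their values were seen. Replicates are separate mice of unstated litters, and their spread is what the tests measure. No library was a duplicate of another. The 5hmC tables were not used here.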

Additional observations from a re-analysis of the deposited data

Results flagged for a closer look

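Genes named as copies of the members stand outside the 80 genes compared, and they carried signal. Their summed level averaged 11772 TPM over the 12 libraries and ranged from 8428 in wild-type control replicate 3 to 15572 in wild-type control replicate 1. Rps27rt (2354 TPM), Rpl31-ps8 (1987 TPM), Rpl37rt (859 TPM) and Rps6-ps4 (798 TPM) led them. The sum was high and low in the same libraries as the members' own. Whether these reads come from the copies or from the members was not tested.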

How the results depend on the processing

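The number of members called was 0 in all 213 fits (27 settings, 8 contrasts, where the setting could be fitted). Over all genes edgeR called 0 to 1 per contrast, DESeq2 0 to 12, limma-trend 0 to 2 and limma-voom with sample weights 0 to 983. The median member log2 fold change moved by less than 0.53 in each alternative, the pooled SD between replicates of the median member deviation. That bound is wider than the largest median, -0.39, so it cannot show that a median held, and the sign was not stable. With 1 library left out it ran from -0.29 to 0.49 for genotype in controls, from -0.37 to 0.06 for genotype after stress, from -0.44 to 0.20 for stress in wild type, from -0.60 to 0.02 for stress in heterozygotes, from -0.58 to 0.11 for heterozygous stress against wild-type control, from -0.58 to 0.21 for the interaction, from -0.20 to 0.21 for the genotype average and from -0.43 to -0.09 for the stress average. An arm left with 2 libraries shared the spread of the other groups. On log2(TPM + 1) the median of all genes itself lay between -0.07 and 0.21. Nothing in the labels ties a replicate number to a common litter or day, and only 9 of 18 same-numbered pairs correlated above 0.1 (-0.26 to 0.67), so the numbers were not used to pair the libraries. As a hint from the data, 8 of 12 libraries correlated best with their own number. With the replicate block no member was called, the median for genotype after stress turned from -0.12 to 0.01, and the medians were 0.17, 0.01, -0.13, -0.30, -0.14, -0.16, 0.08 and -0.21 in the order above. Of 32 gene results 29 alternative values had the other sign, none past the threshold, and the cause was not tested. In limma-voom with sample weights these were Rpl29 (-0.0032) for genotype in controls, Rpl5 for genotype after stress (-0.10) and on average (-0.13), Rps14 for stress in wild type (0.024) and on average (0.012), and Rpl4 for heterozygous stress against wild-type control (-0.067). Merged with copies, an alternative chosen after seeing the data, they were Rps27 (0.077) and Rpl10 (0.20) for genotype in controls, Rpl10 for stress in heterozygotes (-0.43) and on average (-0.28), and Rps27 (-0.32) and Rpl10 (-0.28) for the interaction. Without the 2 libraries of lowest length slope, likewise chosen after seeing the data, they were Rps14 for stress in wild type (0.26) and on average (0.19), and Rpl17 for stress in heterozygotes (0.072). With 1 library left out, the log2 fold change of Rpl10 ran from -0.50 to 0.070 for genotype in controls, from -0.043 to 0.40 for stress in heterozygotes, from -0.037 to 0.53 for the interaction and from -0.079 to 0.21 for the stress average. Rpl5 ran from -0.14 to 0.37 for genotype after stress, and Rpl4 from -0.0062 to 0.15 for stress in wild type and from -0.028 to 0.13 for heterozygous stress against wild-type control. Rps14 ran from -0.87 to 0.25 for stress in wild type, and for stress in heterozygotes Rpl3l ran from -0.023 to 0.38 and Rpl17 from -1.11 to 0.072. Ratios of the summed member TPM between groups moved by less than 1 SD between replicates under each alternative, which is a loose bound too. Depth limits Rpl3l, Rpl39l, Rpl6l and Rpl10l.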
